A study of Mus musculus with 24 samples.

Results

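Remote ischemic conditioning applied while mice were breathing diesel exhaust was compared with the exhaust alone, over 6 of the 24 lung libraries of the series, chosen by their labelled treatment. The comparison set 3 libraries of perconditioned mice, called DE+RIC, against 3 libraries of exposed mice without conditioning, called DE. All mice were male C57BL/6 and 20 weeks old, and both groups breathed fumes from a diesel engine for 30 min per day on 5 days per week for about 8 weeks, a schedule meant to produce features of lung fibrosis. In DE+RIC, blood flow to the left leg was also stopped for 5 min and restored for 5 min, in 3 cycles on 3 days per week for 4 weeks during the exposure. No sham procedure on the leg is described for DE in the labels. A second pair of groups also took pirfenidone, an antifibrotic drug, dosed daily at 300 mg/kg, 6 days a week, with 0.5% carboxymethylcellulose as vehicle (DE+PFD+RIC, 3 libraries, against DE+PFD, 3 libraries), and a healthy pair was left unexposed (RIC, 3 libraries, against C, 3 libraries). The labels do not say that the 3 libraries of a group are 3 mice. The p-values therefore rest on the spread between libraries within groups, estimated over all 24 libraries together, which may be partly technical.

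Remote conditioning is best known from the heart, where brief ischemia of a limb before or during an injury lessens the damage to a distant organ through humoral and nerve signals. Diesel exhaust carries particles and aromatic hydrocarbons that reach the small airways, where they are met by alveolar macrophages, induce enzymes of the aryl hydrocarbon receptor and recruit immune cells. In fibrosis, fibroblasts driven by transforming growth factor beta become myofibroblasts and lay down collagen. A mouse lung lobe also carries other tissues with it: the large pulmonary veins are sheathed by heart muscle cells, lymphoid aggregates line the airways, and fat, lymph nodes and mast cells lie along the main bronchi and in the mediastinum.

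Total counts were 11271432, 7296425 and 18494156 in DE+RIC 1, 2 and 3, and 8885406, 6920161 and 5700391 in DE 1, 2 and 3. Each value below is given in that order, library 1 first, as CPM, the gene's count scaled to the TMM-adjusted library size, unless it is a log2 fold change. All 6 libraries carried the defining lung transcripts, with Sftpc at 23764 to 28386 CPM in DE+RIC and 20295 to 29595 CPM in DE. Library DE+RIC 3 is dated November and the other 5 October, so the results are also given for October libraries, that is, DE+RIC 1 and 2 against DE 1, 2 and 3. Library DE 1 stood apart: on the first principal component of the 6 libraries, which held 41.3% of the variance, the DE+RIC libraries lay at 13.5, 38.9 and 13.8, and DE 1, 2 and 3 at -64.4, 14.3 and -16.0. Library DE+RIC 2 lay apart on the second component, at 45.8 with 23.6% of the variance.

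Across 17490 genes tested with edgeR's quasi-likelihood test, 2 genes had a Benjamini-Hochberg adjusted p under 0.05, taken here as passing, both lower in DE+RIC (0.0114% of the genes tested), and 0 passed as higher. DESeq2, run without edgeR's filter on low counts, called 32 genes, 3 higher and 29 lower, of which 24 were among the genes tested in edgeR. The 3 higher genes were not among these 24, and had DESeq2 log2 fold changes of 16.4 to 17.2. At an unadjusted p under 0.05, 190 genes were higher (1.09%) and 575 were lower (3.29%), while the median log2 fold change over all genes was 0.01. In October libraries 0 genes passed, with 117 higher (0.669%) and 448 lower (2.56%) at an unadjusted p under 0.05. DE 1 was the highest of the 3 DE libraries for 508 of the 575 lower genes, DE 3 for 37 and DE 2 for 30. The differences thus lay mostly on the lower side, and 1 DE library carried the highest value for most of them.

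The only named protein-coding gene past the threshold was Pla2g2d, which encodes a secreted phospholipase A2 that in mice is made by macrophages and dendritic cells of lymphoid tissue. Pla2g2d had 2.55, 2.52 and 3.07 CPM in DE+RIC, against 54.0, 4.48 and 28.7 CPM in DE. It fell by 3.41 ± 0.55 on the log2 scale (SE; edgeR adjusted p = 0.0382). The groups did not overlap, but DE 2 lay close to the DE+RIC libraries and DE 1 and DE 3 far above them. The other 18 libraries of the series ran from 1.90 to 5.11 CPM, so DE 1 and DE 3 were also above every library outside the comparison. The call was lost in October libraries (adjusted p = 0.443), without DE 1 (log2 fold change -2.59, adjusted p = 0.538), without DE 3 (adjusted p = 0.127) and without each DE+RIC library (adjusted p = 0.261 to 0.449), in each case from edgeR. It was also lost with the libraries of the 2 groups alone (adjusted p = 0.239) and with October and November libraries alone (adjusted p = 0.0547).

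The other gene past the threshold was Gm43305, a transcript of unknown function that the annotation lists as a processed transcript. It is named because it is 1 of only 2 calls, although predicted genes were otherwise left out. Gm43305 had 0.0878, 0 and 0.104 CPM in DE+RIC, or 1, 0 and 2 reads, against 14.9, 2.69 and 8.61 CPM in DE, or 136, 18 and 49 reads. Summed over each group, DE held 119 times the CPM of DE+RIC, with a 95% exact interval of 40.1 to 581 that covers counting error only (edgeR adjusted p = 0.0121). In the other 18 libraries it lay between 1.85 and 10.8 CPM, so here the DE+RIC libraries stood apart, below all 21 others. In October libraries its adjusted p was 0.321, without DE 1 0.0953, and without each DE+RIC library 0.153 to 0.330. With the libraries of the 2 groups alone it was 0.125, and with October and November libraries alone 0.0099.

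Pla2g2d belongs to a list of 16 tested genes of lymphoid tissue macrophages and stroma, of which 14 had a log2 fold change below 0, against 48.4% of all genes tested. Their median log2 fold change was -1.50 (-1.70 in October libraries), beside 0.01 for all genes. On the lower side 12 had an unadjusted p under 0.05 in edgeR (3.29% of all genes tested). Cd209b, a lectin of marginal zone and lymph node sinus macrophages, had 2.11, 1.12 and 1.77 CPM in DE+RIC, against 80.1, 1.34 and 30.6 CPM in DE. Timd4, a receptor of resident macrophages for dying cells, had 1.93, 1.12 and 2.08 CPM in DE+RIC, against 28.0, 2.09 and 17.4 CPM in DE. For both genes DE 1 and DE 3 were high, and DE 2 lay inside the DE+RIC range or just above it. Neither passed (log2 fold changes -4.45 ± 0.78 and -3.17 ± 0.58, SE; edgeR adjusted p = 0.0739 and 0.0972).

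Of the other members, several were also highest in DE 1 and DE 3. The T zone chemokine Ccl19 had 0.703, 1.40 and 0.883 CPM in DE+RIC, against 24.3, 1.19 and 13.2 CPM in DE. The scavenger receptor of sinus endothelium Stab2 had 2.55, 3.35 and 2.96 CPM in DE+RIC, against 24.2, 2.84 and 9.32 CPM in DE. Their log2 fold changes were -3.74 ± 0.79 and -2.05 ± 0.47 (SE), with edgeR adjusted p of 0.280 and 0.345. The chemokine of lymphatic vessels and T zones Ccl21a had 86.7, 102 and 89.3 CPM in DE+RIC, against 333, 131 and 199 CPM in DE, so that its groups did not overlap, as for 5 of the 16 members on the lower side (6.03% of all genes tested). Dnase1l3, a secreted nuclease, and Il22ra2, a soluble decoy receptor for interleukin 22, are not on the list and had log2 fold changes of -3.43 ± 0.71 and -2.75 ± 0.60 (SE; edgeR adjusted p = 0.280 each), with DE 2 inside the DE+RIC range of both genes. Cd209a, a lectin of dendritic cells, went the other way without overlap, with 14.8, 12.7 and 13.2 CPM in DE+RIC, against 9.86, 9.11 and 8.44 CPM in DE (log2 fold change 0.57 ± 0.27, SE; edgeR unadjusted p = 0.0459). Fcgbp, Vcam1 and Lyve1 had 0.55, 0.00 and -0.18, and Lyve1 was lowest in DE 1 of the 6 libraries. Besides Pla2g2d, DESeq2 called 4 members, Cd209b, Timd4, Ccl19 and Stab2 (adjusted p = 5.74e-06, 0.000268, 0.00663 and 0.0406). Without DE 1 the list's median was -0.87. In bulk RNA, fewer cells of a type and less RNA per cell cannot be told apart.

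Of the 51 gene lists examined, that of fat cells had the median farthest from 0. All 15 tested members had a log2 fold change below 0 (48.4% of all genes tested), with a median of -2.65 (-2.46 in October libraries). None passed in edgeR, where 13 had an unadjusted p under 0.05, all lower (3.29% of all genes tested). DESeq2 called Ucp1 and Cidea (adjusted p = 0.0304 and 0.0323), and edgeR with the replicate number as a block called Ucp1 (adjusted p = 0.0143). Without DE 1 the median was -1.58. Ucp1, the uncoupling protein that defines brown fat, had 0.0878, 0 and 0.104 CPM in DE+RIC (1, 0 and 2 reads), against 132, 1.34 and 26.5 CPM in DE (1201, 9 and 151 reads). DE held 797 times the CPM, with a 95% exact interval of 272 to 3868 for counting error only (edgeR adjusted p = 0.423). The groups did not overlap, yet the 3 DE libraries differed among themselves by far more than DE 2 differed from DE+RIC.

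The summed level of the 15 fat genes was 473, 613 and 452 CPM in DE+RIC, against 4829, 712 and 1478 CPM in DE, with 1 member, Ucp1, at 0 in a DE+RIC library and none at 0 in a DE library. Cidea, a lipid droplet protein abundant in brown fat, had 2.11, 3.21 and 2.13 CPM in DE+RIC, against 194, 4.48 and 30.8 CPM in DE. Plin1, which coats the lipid droplet of fat cells, had 5.09, 8.39 and 5.87 CPM in DE+RIC, against 155, 9.70 and 37.8 CPM in DE. The order DE 1, DE 3, DE 2 was the same for all 3 genes and for the summed level. Over the other 18 libraries Ucp1, Cidea and Plin1 had medians of 0.226, 3.46 and 15.5 CPM. Their highest values there were 36.3, 94.1 and 142 CPM, all in RIC+DE 1, from mice conditioned before the exhaust. Of these 18 libraries 11, 11 and 14 lay above all DE+RIC libraries, and 14, 12 and 6 below all DE libraries. Cfd (adipsin), Car3, Fabp4 and Adipoq (adiponectin) had log2 fold changes of -2.65, -2.87, -3.33 and -3.10, none past the threshold in edgeR or DESeq2. The high DE libraries for fat genes were thus those that were high for lymphoid tissue genes. The part of either set of cells in the Pla2g2d result was not tested.

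The 4 mast cell proteases tested had log2 fold changes between -4.04 and -2.26, none past the threshold in edgeR, while other genes of mast cells lay near 0. DESeq2 called Tpsb2 and Mcpt4 (adjusted p = 0.0257 and 0.0288), and edgeR called Tpsb2 with October and November libraries alone (adjusted p = 0.0484) and Mcpt4 without DE 2 (adjusted p = 0.0262). Tpsb2, a tryptase of connective tissue mast cells, had 0.615, 1.12 and 0.623 CPM in DE+RIC, against 24.5, 2.69 and 9.67 CPM in DE (log2 fold change -4.04 ± 0.98, SE; edgeR adjusted p = 0.390). The groups did not overlap. The proteases Mcpt4, Cma1 and Cpa3 had log2 fold changes of -2.86, -2.26 and -2.54, whereas Kit, Gata2, Hdc and Ms4a2, which other cells of the lung also express in part, lay between 0.03 and 0.23. The 8 tested genes summed to 312, 354 and 317 CPM in DE+RIC and 335, 327 and 354 CPM in DE, a sum made up mostly of Kit, Gata2 and Hdc.

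Among lymphocyte genes, all 20 T cell genes and all 16 B cell genes tested had a log2 fold change below 0, against 48.4% of all genes tested. Their medians were -0.94 and -0.78 (-0.87 and -0.86 in October libraries). Without DE 1 these medians were -0.43 and -0.34. No member passed in edgeR. There 16 T cell genes and 4 B cell genes had an unadjusted p under 0.05, all lower (3.29% of all genes tested). DESeq2 called Trac (adjusted p = 0.0257), and edgeR without DE 2 called Trac and Cd3e (adjusted p = 0.0127 and 0.0399). Trac, the constant region of the T cell receptor alpha chain, had 11.0, 11.5 and 11.5 CPM in DE+RIC, against 44.2, 16.1 and 24.1 CPM in DE (log2 fold change -1.32 ± 0.29, SE; edgeR adjusted p = 0.313). The 3 DE+RIC libraries were nearly alike and the DE libraries all higher, with DE 2 the nearest. Trbc2, the beta chain constant region, had 20.7, 21.2 and 19.3 CPM in DE+RIC, against 77.9, 30.9 and 32.2 CPM in DE, again without overlap. Cd3e, a signalling chain of the receptor, overlapped, with 7.82, 11.9 and 8.36 CPM in DE+RIC and 31.4, 10.0 and 18.6 CPM in DE.

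The T cell genes summed to 285, 328 and 275 CPM in DE+RIC, against 830, 358 and 437 CPM in DE, with no member at 0. Ighm, the heavy chain of immunoglobulin M, had 213, 165 and 215 CPM in DE+RIC, against 1440.0, 219 and 356 CPM in DE (log2 fold change -1.77 ± 0.51, SE; edgeR adjusted p = 0.533), and without DE 1 the log2 fold change was -0.54. Ighg3, a heavy chain of switched plasma cells, had 1.32, 4.89 and 1.09 CPM in DE+RIC, against 200.1, 1.34 and 20.0 CPM in DE. Its groups overlapped, with DE 2 between DE+RIC 1 and DE+RIC 2. The median of the 12 plasma cell genes was -1.19, and -0.13 without DE 1, so that 1 library set most of it. Immunoglobulin genes are near-identical copies in part, and the counting of reads that match several of them is not stated in the labels.

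**Figure D1:**
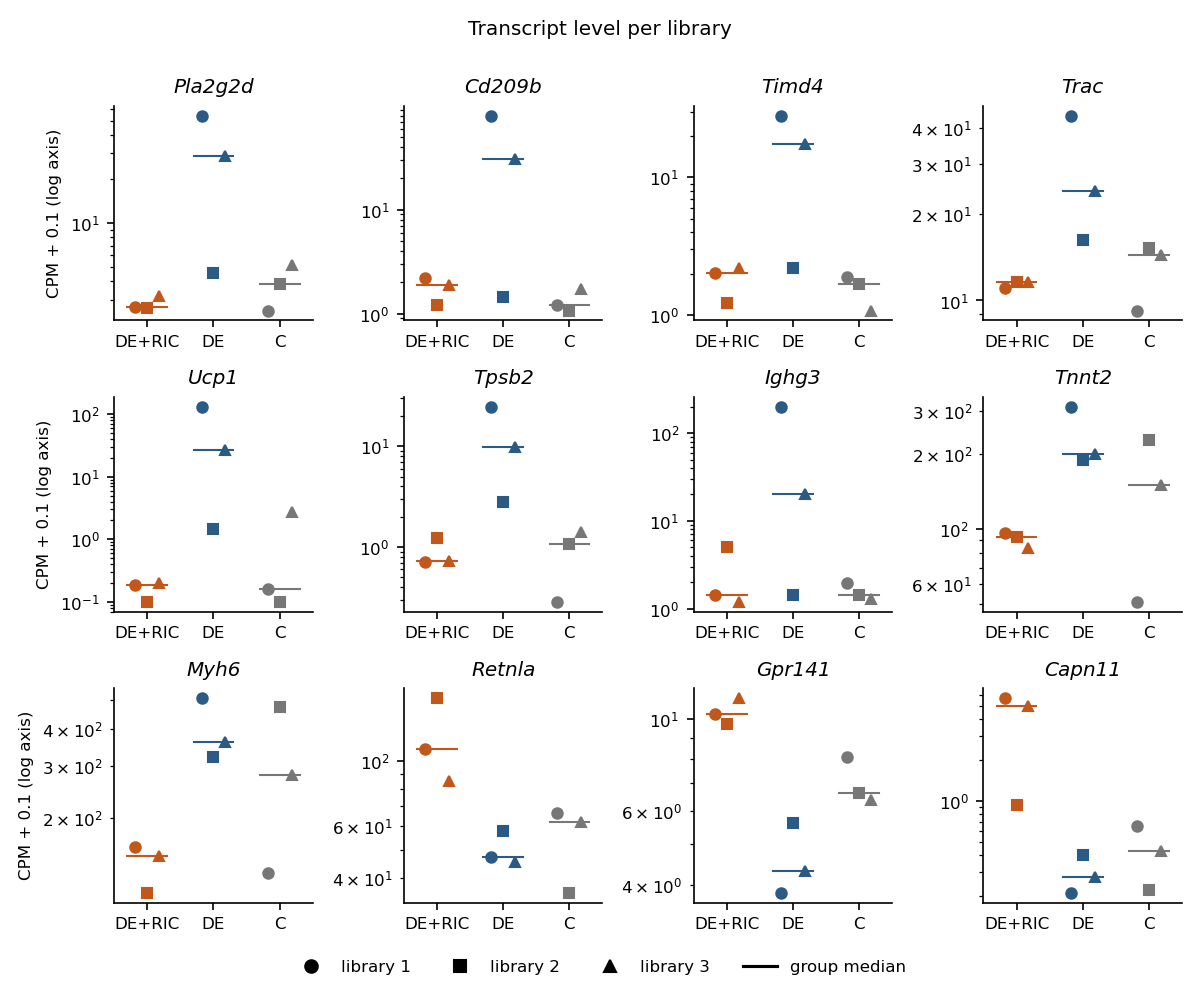
Level of 12 genes in each library, as CPM + 0.1 on a log axis, with DE+RIC left of DE and healthy controls (C) at the right. Symbols mark libraries 1, 2 and 3 of a group and lines mark group medians. In the panels from Pla2g2d to Ighg3, DE 1 and DE 3 lie above DE+RIC and DE 2 is the lowest DE library. DE 2 lies inside the DE+RIC range for Cd209b and Ighg3 and above it in the others of these panels. Tnnt2 and Myh6 are higher in all 3 DE libraries, and Retnla, Gpr141 and Capn11 are higher in all 3 DE+RIC libraries.

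Heart muscle genes differed from the sets above in degree, as DE 2, too, lay above DE+RIC in nearly all members. All 15 tested genes had a log2 fold change below 0 (48.4% of all genes tested), with a median of -1.32 (-1.28 in October libraries). In 14 of them every DE+RIC library lay below every DE library, beside 6.03% of all genes tested. The same held for 9 of 15 fat genes, 8 of 20 T cell genes and 8 of 16 B cell genes. It also held for 5 of 16 lymphoid tissue genes, 2 of 8 mast cell genes and 1 of 12 plasma cell genes. Tnnt2, cardiac troponin T, had 96.7, 93.1 and 84.1 CPM in DE+RIC, against 311, 189.7 and 201 CPM in DE. Myh6, the alpha heavy chain of cardiac myosin, had 161, 112 and 149.5 CPM in DE+RIC, against 509.6, 321 and 362 CPM in DE. The lowest DE library was 1.96 times the highest DE+RIC library for Tnnt2, with a like gap for Myh6. The log2 fold changes were -1.36 ± 0.39 and -1.50 ± 0.56 (SE), with edgeR adjusted p of 0.533 and 0.832, so neither passed.

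With October and November libraries alone, 8 genes passed, all lower. Tnnt2 and Myh6 were among them (edgeR adjusted p = 0.0405 and 0.0439), as were Tnnc1, the troponin C of heart and slow muscle, and Mhrt, a noncoding transcript that overlaps the cardiac myosin genes, whose reads cannot be told from theirs if strand was not used in counting. The other 4 were Gm43305, the protease Tpsb2, Itga2b, an integrin of platelets, and a gene without a symbol. Myl4 and Myl7, atrial light chains of myosin, had log2 fold changes of -1.48 ± 0.52 and -1.49 ± 0.61 (SE; edgeR adjusted p = 0.756 and 0.928). Pln (phospholamban), Tnni3 (cardiac troponin I) and Mybpc3 (cardiac myosin binding protein C) lay between -1.26 and -1.79. Fabp3, Hrc, Mybphl and Fndc5 are outside the list and were chosen by the gap between groups, so their lack of overlap follows from that choice. Nppa, the atrial natriuretic peptide, overlapped, with 25.5, 23.3 and 18.2 CPM in DE+RIC and 137, 12.7 and 31.3 CPM in DE.

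The summed level of the 15 genes was 641, 677 and 559 CPM in DE+RIC, against 2042, 1187 and 1297 CPM in DE, and no member was at 0 in any of the 6 libraries. Without DE 1 the median was -0.96. Levels varied as widely elsewhere in the series: Tnnt2 ran from 50.8 to 544 CPM over the other 18 libraries, of which 16 were above all DE+RIC libraries and 9 below all DE libraries. In C, Myh6 had 131, 476 and 281 CPM. The October libraries C 2 and C 3 lay above every DE+RIC library, and C 1, dated March, lay inside the DE+RIC range. Skeletal muscle genes, by contrast, had a median of -0.18, with 5 of 8 below 0.

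**Figure D2:**
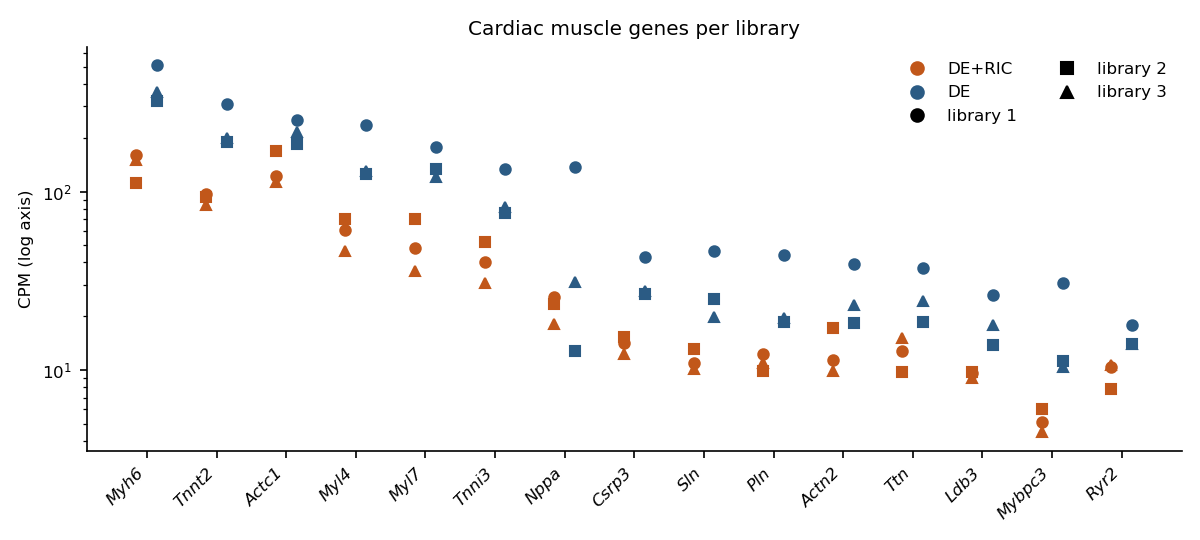
Level of the 15 heart muscle genes in each of the 6 libraries, in CPM on a log axis, with DE+RIC left of DE for each gene. In 14 of the 15 genes all 3 DE+RIC libraries lie below all 3 DE libraries, and Nppa is the exception.

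The promoters of Myh6 and Tnnt2 are shown because these members had the clearest gap between groups and their upstream regions are textbook examples of muscle-specific control. The 250 bases before the start of transcription are printed from RefSeq in build GRCm38.p6, which is older than the build of the counts and serves for sequence only. Capitals mark the M-CAT element, searched as CATTCC on both strands, the site bound by TEAD factors and the only element searched in this set. Myh6 lies at chr14:54966608-54966857 on the minus strand and Tnnt2 at chr1:135836084-135836333 on the plus strand.
Myh6: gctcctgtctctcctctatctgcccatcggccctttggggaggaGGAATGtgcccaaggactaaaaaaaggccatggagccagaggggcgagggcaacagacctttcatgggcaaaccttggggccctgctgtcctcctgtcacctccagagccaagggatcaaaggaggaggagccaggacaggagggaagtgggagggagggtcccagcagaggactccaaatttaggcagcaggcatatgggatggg
Tnnt2: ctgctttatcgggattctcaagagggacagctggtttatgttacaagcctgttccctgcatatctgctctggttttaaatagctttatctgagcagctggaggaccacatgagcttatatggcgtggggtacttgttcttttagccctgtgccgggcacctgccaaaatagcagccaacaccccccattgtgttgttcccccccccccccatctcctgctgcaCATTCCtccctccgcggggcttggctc
In Myh6 the element is on the opposite strand and begins 206 bases before the start, and in Tnnt2 it begins 27 bases before it. Over windows that also take in 50 bases after the start, 4 of 14 heart muscle genes with a window held the element (Myh6, Myl7, Tnnt2 and Ttn), beside 16.6% of 27025 genes. A second Tnnt2 start in the table held none. A match is a description of the letters, and no binding was measured.

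Set side by side, the lists differed in how far they followed DE 1 and DE 3. The level of the fat list, as the mean log2(CPM + 0.5) of its members less the mean of the 6 libraries, was -1.20, -0.72 and -1.20 in DE+RIC, against 2.67, -0.49 and 0.94 in DE. The heart muscle list had -0.53, -0.47 and -0.72 in DE+RIC, against 1.18, 0.19 and 0.35 in DE. In both lists DE 2 thus lay above all 3 DE+RIC libraries. It was nearer to the highest of them for fat (-0.49 against -0.72) than for heart muscle (0.19 against -0.47). The fibroblast list had 0.01, 0.06 and 0.00 in DE+RIC, against -0.05, -0.08 and 0.06 in DE. The dendritic and ciliated cell lists spread more widely over the DE libraries, with DE 1 farthest from DE+RIC: dendritic cell genes had -0.09, -0.11 and -0.07 in DE+RIC, against 0.54, -0.40 and 0.13 in DE, and ciliated cell genes 0.13, 0.16 and 0.15 in DE+RIC, against -0.52, 0.29 and -0.20 in DE. Collagen and matrix genes had 0.01, -0.09 and 0.03 in DE+RIC, against 0.17, -0.32 and 0.19 in DE.

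**Figure D3:**
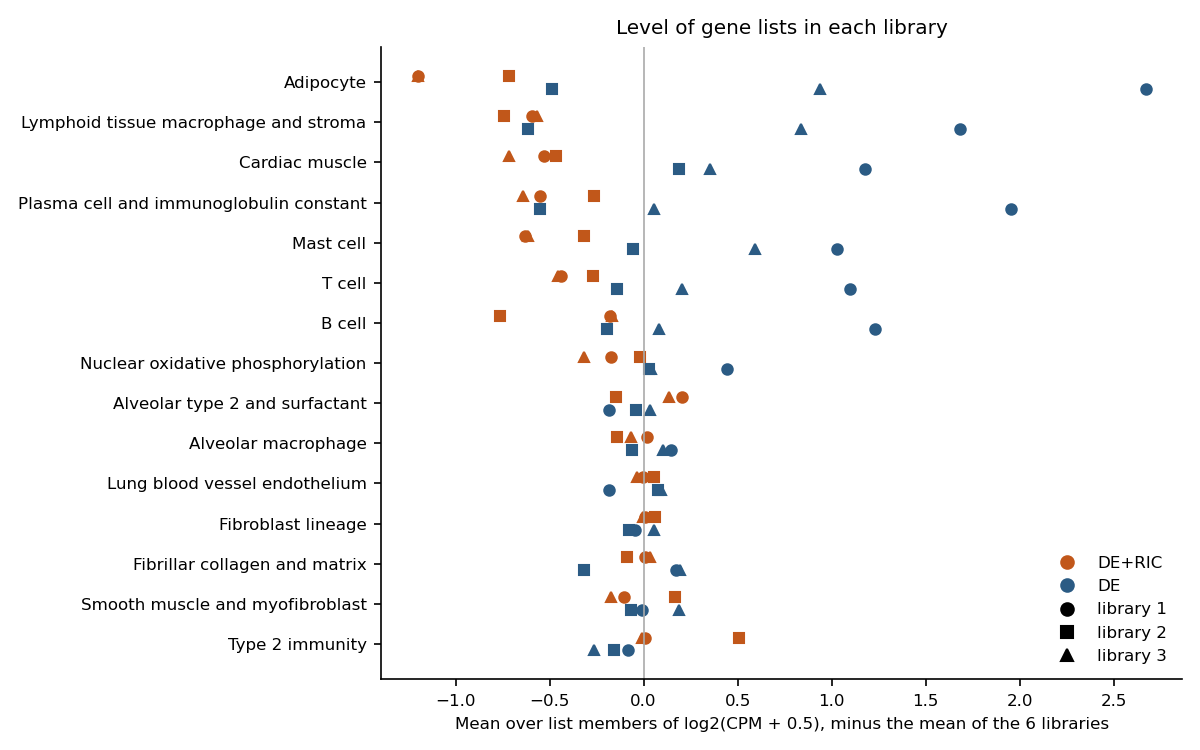
Level of 15 gene lists in each library, as the mean over members of log2(CPM + 0.5) less the mean of the 6 libraries, with DE+RIC above DE within each list. DE 1 and then DE 3 lie far right for fat and lymphoid tissue genes, all 3 DE libraries lie right of DE+RIC for heart muscle genes, and both groups overlap for the fibroblast, collagen and alveolar macrophage lists.

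**Figure D4:**
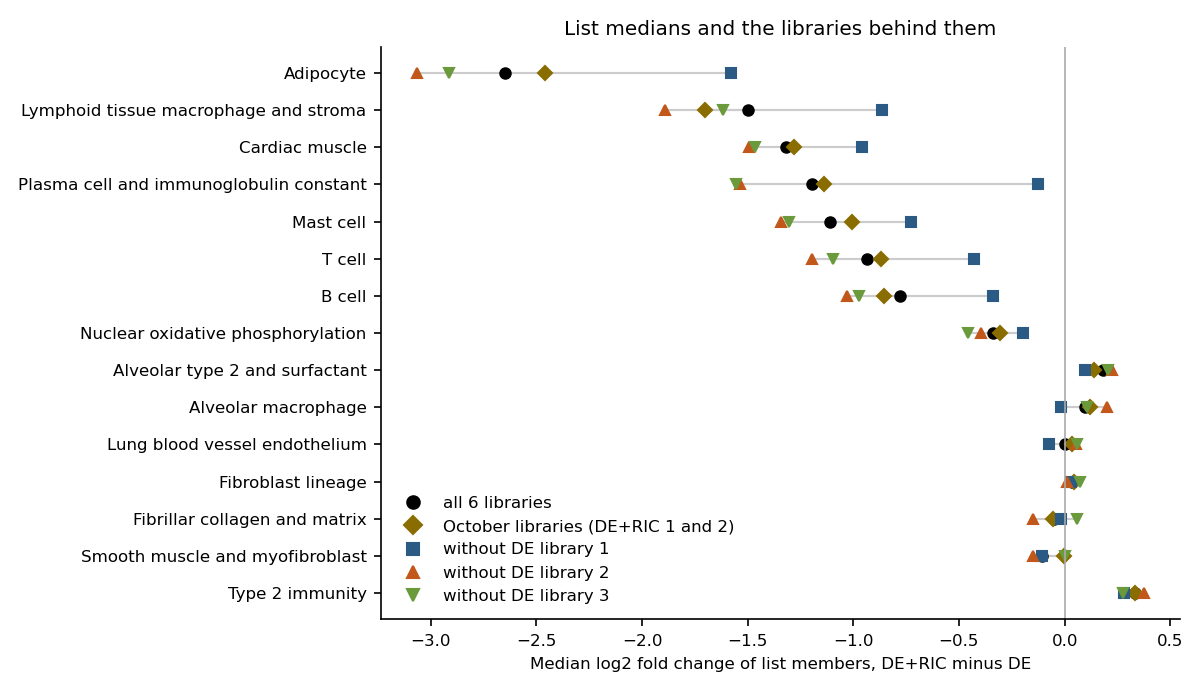
Median log2 fold change of list members, DE+RIC minus DE, with all 6 libraries, with October libraries, and without each DE library in turn. The fat list has -2.65 with all libraries and -1.58 without DE 1, and the plasma cell list has -1.19 and -0.13, while the fibroblast and collagen lists stay near 0 throughout.

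On the higher side no gene passed in edgeR. Retnla, a secreted protein of macrophages and airway cells under type 2 cytokines in mice, had 109, 163 and 84.8 CPM in DE+RIC, against 47.1, 57.5 and 45.2 CPM in DE. Every DE+RIC library was above every DE library, as for 6.3% of all genes tested, and the log2 fold change was 1.25 ± 0.39 (SE; edgeR adjusted p = 0.606). The other 18 libraries ran from 21.4 to 157 CPM, of which 16 were below all DE+RIC libraries. Gpr141, an orphan receptor of myeloid cells, had 10.2, 9.64 and 11.1 CPM in DE+RIC, against 3.72, 5.52 and 4.22 CPM in DE (log2 fold change 1.21 ± 0.40, SE; edgeR adjusted p = 0.664). It was the only named gene of at least 5 CPM whose lowest DE+RIC library exceeded the highest DE library by 1.5 times or more (0.00806% of 12407 genes, against 0.242% on the lower side).

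Retnla is 1 of 15 tested genes of type 2 immunity, of which 10 had a log2 fold change above 0, against 51.6% of all genes, with a median of 0.33. Muc5ac, the gel-forming mucin of goblet cells, had 2.20, 4.05 and 1.56 CPM in DE+RIC, against 0.986, 1.04 and 0.703 CPM in DE, without overlap (log2 fold change 1.44 ± 0.64, SE; edgeR adjusted p = 1.00). Clca1, another goblet cell product, had 1.58, 120.2 and 2.23 CPM in DE+RIC, against 2.85, 1.49 and 1.58 CPM in DE, so that DE+RIC 2 alone was high. Arg1, Mrc1 and Il33 had log2 fold changes of 0.15, -0.03 and -0.02. The promoter of Retnla is shown because the gene has the smallest p of the list and its control by STAT6, the factor activated by interleukins 4 and 13, is well known in mice. It lies at chr16:48842359-48842608 on the plus strand of GRCm38.p6, from RefSeq, with capitals for a match to the STAT6 element, searched as TTC, any 4 bases and GAA, which reads alike on both strands, the only element searched in this set.
Retnla: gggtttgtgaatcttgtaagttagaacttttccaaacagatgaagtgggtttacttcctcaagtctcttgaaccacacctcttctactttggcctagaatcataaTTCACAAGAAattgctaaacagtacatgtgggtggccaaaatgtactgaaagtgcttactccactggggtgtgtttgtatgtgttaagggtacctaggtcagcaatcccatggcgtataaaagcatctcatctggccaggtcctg
The match begins 145 bases before the start. In the windows that take in 50 bases after the start, 3 of 8 type 2 genes with a window held the element (Il33, Pdcd1lg2 and Retnla), beside 8.01% of 27025 genes.

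Capn11, a calpain known mainly from testis, had 5.62, 0.839 and 4.88 CPM in DE+RIC, against 0.110, 0.299 and 0.176 CPM in DE (log2 fold change 4.29 ± 0.92, SE; edgeR adjusted p = 0.280). Over the other 18 libraries it ran from 0.0629 to 3.26 CPM. Smaller differences without overlap were those of Pign, an enzyme of the glycolipid anchor of membrane proteins (1.32 ± 0.36), Ptger2, a receptor for prostaglandin E2 (0.70 ± 0.22), Rasef, a Rab GTPase with calcium-binding motifs (0.78 ± 0.22), and Cds1, which makes CDP-diacylglycerol for phospholipids (0.44 ± 0.15), as log2 fold changes with SE. All 4 had adjusted p of 0.527 or more in edgeR.

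No gene of the fibrosis lists passed in edgeR or DESeq2. Col10a1, a collagen gene outside these lists, was called lower in DESeq2 but not in edgeR. Its DESeq2 log2 fold change was -25.1 ± 3.59 (SE; DESeq2 adjusted p = 8.42e-08), and the reads behind it were not examined. Of 24 fibrillar collagen and matrix genes, 10 had a log2 fold change above 0 and 14 below, with a median of -0.05, and none had an unadjusted p under 0.05 in either direction. The log2 fold changes ran up to 0.67 for Vcan (versican), and down to -2.80 ± 1.53 (SE) for Col11a1, a minor fibrillar collagen with 0.176, 0 and 0.156 CPM in DE+RIC, against 2.30, 0.149 and 0.176 CPM in DE. For Col11a1 DE 1 alone was high. The 19 elastic fibre and crosslinking genes had a median of -0.11, from -0.92 for Fbn2 (fibrillin 2) to 0.21 for Plod2, a lysyl hydroxylase. Col1a1, the alpha 1 chain of type I collagen, had 282, 182 and 248 CPM in DE+RIC, against 313, 180.2 and 351 CPM in DE (log2 fold change -0.25 ± 0.37, SE; edgeR adjusted p = 1.00). Col3a1, the chain of type III collagen, had 409, 290.0 and 393 CPM in DE+RIC, against 496, 271 and 518 CPM in DE (-0.23 ± 0.34). In both genes DE 2 was the lowest of the 6 libraries or close to it, and the groups overlapped.

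Fibronectin (Fn1), periostin (Postn) and osteopontin (Spp1) had log2 fold changes of -0.02 ± 0.30, -0.05 ± 0.25 and 0.05 ± 0.48 (SE). The myofibroblast actin Acta2 had 376, 518 and 330.4 CPM in DE+RIC, against 479, 376 and 464 CPM in DE (-0.11 ± 0.36). Tgfb1, the ligand, had 106, 77.6 and 94.9 CPM in DE+RIC, against 143, 97.6 and 119 CPM in DE (-0.37 ± 0.19), and Ccn2, a classic target, 0.23 ± 0.29. Of 21 genes of the pathway 15 had a log2 fold change above 0, among them the receptor Tgfbr1 (0.34) and the shared signal transducer Smad4, with 62.6, 70.7 and 65.5 CPM in DE+RIC, against 50.4, 50.6 and 50.5 CPM in DE (0.39 ± 0.13; edgeR adjusted p = 0.683). Timp1, an inhibitor of matrix proteases, had -0.06 ± 0.35, and the fibroblast list of 20 genes a median of 0.03. Tgfb1, Tgfbr1, Smad4 and Col11a1 had an SE smaller than the difference, and Smad4 an unadjusted p of 0.00714 in edgeR. For the other fibrosis genes given with an SE, it was as large as the difference or larger, so their values do not show that the groups are alike.

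No gene of the inflammatory and exhaust lists passed in edgeR or DESeq2. Of 26 cytokine and chemokine genes 6 had an unadjusted p under 0.05 in edgeR, all lower (3.29% of all genes tested). They were led by the lymphoid chemokine Cxcl13 and by Ccl5, a product of T and NK cells. Ccl5 had 37.9, 48.1 and 29.4 CPM in DE+RIC, against 144, 56.7 and 80.7 CPM in DE. Il1b, the fever cytokine of myeloid cells, had 42.9, 34.8 and 38.1 CPM in DE+RIC, against 35.2, 25.2 and 25.1 CPM in DE (log2 fold change 0.44 ± 0.44, SE). Il6, Tnf, Ccl2 and Cxcl1 lay at 0.28 to 3.50 CPM, with log2 fold changes of 0.77, 0.34, -0.59 and -0.21. Cyp1a1, the main target of the aryl hydrocarbon receptor, had 4.22, 5.03 and 3.12 CPM in DE+RIC, against 8.43, 7.76 and 8.61 CPM in DE, without overlap (-1.04 ± 1.12; edgeR adjusted p = 1.00). Its level over the other 18 libraries ran from 1.16 to 294 CPM, and its SE was wider than its difference. The highest values, 294, 153 and 137 CPM in DE+PFD 1, C 1 and RIC+DE 3, were all in March libraries. The NRF2 targets Nqo1 and Hmox1 had 0.01 ± 0.44 and -0.18 ± 0.23, and the 22 antioxidant genes a median of -0.04.

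Genes of the signals proposed to carry remote conditioning (nitric oxide, adenosine, bradykinin, the CXCL12 and CXCR4 pair, erythropoietin and superoxide dismutases) had a median of -0.06 over 23 members, with none at an unadjusted p under 0.05. Endothelial nitric oxide synthase (Nos3) had 25.3, 30.7 and 21.1 CPM in DE+RIC, against 31.3, 20.3 and 28.7 CPM in DE (log2 fold change -0.07 ± 0.29, SE). Cxcl12 and Sod2 had -0.04 ± 0.24 and -0.19 ± 0.19. Bdkrb2, the constitutive bradykinin receptor, was higher without overlap, with 11.2, 14.3 and 10.3 CPM in DE+RIC, against 9.31, 6.27 and 10.0 CPM in DE (0.47 ± 0.36).

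The second pair of groups asks whether conditioning was followed by the same differences in mice on pirfenidone, and it shares no library with the first. It is uneven over batch: DE+PFD+RIC 1 and 2 and DE+PFD 1 are dated March and the other 3 libraries October, which the fold changes take into account through the batch term and the CPM do not. For DE+PFD+RIC against DE+PFD 0 genes passed, with 431 higher (2.46%) and 406 lower (2.32%) at an unadjusted p under 0.05 in edgeR and 4 calls in DESeq2. Pla2g2d had 1.90, 3.90 and 3.12 CPM in DE+PFD+RIC, against 4.24, 2.41 and 3.15 CPM in DE+PFD, a log2 fold change of -0.15 ± 0.56. Gm43305 had 2.85, 3.78 and 6.13 CPM in DE+PFD+RIC, against 7.87, 2.68 and 1.85 CPM in DE+PFD. Both genes overlapped between these groups. Tnnt2 had 194, 72.0 and 199 CPM in DE+PFD+RIC, against 166, 149.0 and 154 CPM in DE+PFD, and the heart muscle list had a median of 0.12, with 6 of 15 below 0.

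Retnla and Gpr141, which were higher in DE+RIC without overlap, had the other sign with pirfenidone. Of other such genes, Pign, Ptger2, Rasef and Muc5ac kept their sign (log2 fold changes 0.55, 0.21, 0.19 and 1.12). So did Slf1, Chkb, Pak3 and Mfap3l, which were also higher in DE+RIC without overlap (0.23, 0.33, 0.20 and 0.10). Capn11, Cds1 and Cd209a did not (-2.49, -0.05 and -0.31). Retnla had 49.5, 59.5 and 25.1 CPM in DE+PFD+RIC, against 66.5, 69.3 and 65.7 CPM in DE+PFD (log2 fold change -1.10 ± 0.41, SE). Gpr141 had 3.97, 2.39 and 8.89 CPM in DE+PFD+RIC, against 10.7, 10.7 and 7.83 CPM in DE+PFD (-0.93 ± 0.39). For Retnla each DE+PFD+RIC library lay below the DE+PFD libraries of its own date, whereas for Gpr141 this held for March, and the October library of DE+PFD+RIC lay inside the range of DE+PFD. The difference between the comparisons was 2.34 ± 0.57 for Retnla and 2.14 ± 0.56 for Gpr141 on the log2 scale, and 0 of 17490 genes passed in that test, with edgeR adjusted p of 1.00 for both. At an unadjusted p under 0.05, 233 genes had a positive difference (1.33%) and 294 a negative one (1.68%), and DESeq2 called 5 genes. Of the 575 genes lower in DE+RIC at an unadjusted p under 0.05, 66.1% were also below 0 with pirfenidone, beside 59.7% of all genes below 0 in the first comparison. The same share for the 190 higher genes was 55.3%, beside 58.6%.

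**Figure D5:**
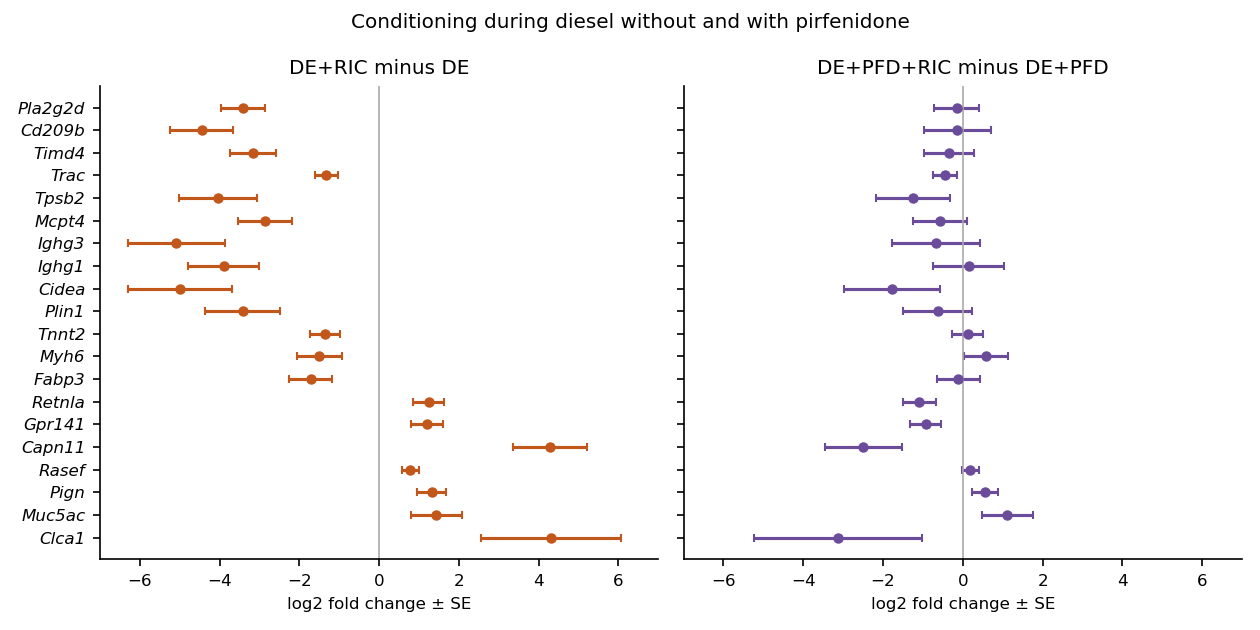
Log2 fold change with SE of 20 genes for conditioning during diesel, DE+RIC minus DE at the left and DE+PFD+RIC minus DE+PFD at the right. Pla2g2d, Cd209b and Timd4 lie far below 0 at the left and within 1 SE of 0 at the right, and Retnla, Gpr141, Capn11 and Clca1 lie above 0 at the left and below it at the right.

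In healthy mice, where RIC was set against C, 0 genes passed, with 124 higher (0.709%) and 106 lower (0.606%) at an unadjusted p under 0.05 in edgeR. Likewise 0 passed in the test of the difference between conditioning with and without exhaust, with 184 genes at a positive difference (1.05%) and 444 at a negative one (2.54%) at an unadjusted p under 0.05 in edgeR and 8 calls in DESeq2. Gm43305 had the smallest adjusted p there (0.0574), with 6.07, 5.55 and 9.26 CPM in RIC, against 7.44, 4.71 and 1.95 CPM in C. Tnnt2 had 175, 230.0 and 199 CPM in RIC, against 50.8, 228 and 151 CPM in C, so that C 2 lay inside the range of RIC and the groups overlapped. Heart muscle genes had a median of 0.53 in this comparison, with 0 of 15 below 0.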

How the data were processed

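Lung RNA was extracted with TRIzol, and its poly(A) fraction was made into strand-specific libraries, as the labels' protocols state. The submitters' processing notes name FastQC 0.12.1, fastp 0.23.4, STAR 2.7.11b, featureCounts and build GRCm39. The values the authors deposited are unscaled read counts, 78275 genes by 24 libraries. Neither the annotation release nor the settings for strand and for multiply matching reads are stated in those sources, so overlapping, antisense and near-identical genes carry uncertain counts. Symbols came from an annotation of GRCm38, by gene identifier.

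The test was that of edgeR 4.0.16 under R 4.3.3 (quasi-likelihood test, TMM scaling, edgeR's filter on low counts, 17490 genes) in a model of all 24 libraries with group and batch in 2 levels, March against October with November. The labels do not say what was done on the batch dates. With a level for November, DE+RIC 3 drops out and the comparison rests on October libraries. Within DE+RIC and within DE no library was a copy of another: chi-square per gene was 8.33 to 27.1 over the 6 pairs, and other pairs were not checked. DESeq2 1.42.0, without edgeR's filter on low counts, and limma 3.58.1 (voom with quality weights) were alternatives. edgeR was tested on simulated counts. The SE given with its log2 fold changes is the absolute change divided by the square root of the test's F statistic. The SE given for DESeq2 is that tool's own. CPM were computed on TMM-scaled library sizes. Whether groups overlap was read from CPM.

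The groups, members and gene lists were chosen with earlier results of these data known. Named genes were those past the threshold or, where few passed, up to 10 with the smallest p in each direction at a mean of 1 CPM or more, up to 8 in each direction with the widest gap between groups (at least 1.5 times, mean of 5 CPM or more), 25 readout genes, and 3 members of each of the 10 lists with the largest median. The text names part of them and further list members. Predicted genes, pseudogenes and receptor segments were left out of the first rules.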

Additional observations from a re-analysis of the deposited data

How the results depend on the processing

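The count of genes past the threshold in DE+RIC against DE, 2 with all libraries, was 0 with batch in 3 levels (October libraries), 0 with the libraries of the compared groups alone, 8 with October and November libraries alone, 32 in DESeq2 and 348 with no filter on low counts. It ran from 0 to 34 over fits without 1 library: 0 without DE 1 or any DE+RIC library, 1 without DE 3 and 34, all lower, without DE 2. It stayed at 2 or 3 in the other settings, but limma voom called 2 other genes (Ccl21a and 5830444B04Rik). For DE+PFD+RIC against DE+PFD the count of 0 became 4 in DESeq2 and 141 with no filter, and stayed at 0 to 0 without 1 library. For the difference from the pirfenidone pair, 0 became 3 with October and November libraries alone, 5 in DESeq2 and 188 with no filter, and ran from 0 to 4 without 1 library (4 without DE 2, 1 without DE+PFD 1). For the difference from the healthy pair, 0 became 1 with no batch term, 1 with October and November libraries alone, 8 in DESeq2 and 273 with no filter, and ran from 0 to 13 without 1 library (13 without DE 2). The cause was not tested. Of the 51 list medians, 8 moved by more than the spread between libraries without DE 1, the most in any setting. No direction of a called gene was reversed.

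Same-numbered libraries did not deviate together (correlations of 0.053, 0.077 and 0.0034 between group deviations), so the numbers pair nothing by this check. With the replicate number as a block, 2 genes passed, Ucp1 and Gm43305, of which 1 was shared with the unblocked fit, and Pla2g2d had an adjusted p of 0.0801. The block left the count at 0 in the other 3 comparisons.

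Each group had 3 libraries, with totals of 5700391 to 18494156. DE 1 and DE 3 were high for fat, lymphoid tissue and mast cell protease genes and DE 2 was not, so the mean of DE depends on which libraries are kept. DE+RIC 3 is alone at its date, and date and library cannot be told apart for it. A batch term took up the March libraries, none of which is in either group.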

Other observations

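Genes of energy metabolism, sterol synthesis and cilia had small differences shared by nearly all members of a list, none past the threshold in edgeR. Other lists were as one-sided. Ribosomal protein genes had 26 of 26 below 0 (median -0.20), and antigen presentation genes of MHC class II 12 of 12 (median -0.28). Of 25 tested nuclear genes of oxidative phosphorylation, the respiratory chain of mitochondria, 24 had a log2 fold change below 0 in DE+RIC against DE (48.4% of all genes tested), with a median of -0.34 (-0.20 without DE 1). Ndufv1, a subunit of complex I, had 121, 127 and 107 CPM in DE+RIC, against 209, 132 and 134 CPM in DE, without overlap, and 12 of the 25 genes had no overlap on the lower side (6.03% of all genes tested). Heart and brown fat are rich in these genes, and their markers were higher in the same libraries; their part in the result was not tested. All 18 tested genes of cholesterol synthesis and uptake had a log2 fold change above 0 (51.6% of all genes tested), with a median of 0.28 (0.16 in October libraries). Cyp51, which removes a methyl group from lanosterol, had 45.6, 36.3 and 46.5 CPM in DE+RIC, against 23.9, 33.3 and 32.5 CPM in DE (0.52 ± 0.19, SE; edgeR adjusted p = 0.794). All 18 ciliated cell genes were above 0 as well, with a median of 0.23, which was 0.05 without DE 1.

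Lists of interferon genes lay farther from 0 in the pair on pirfenidone, with no gene past the threshold there in edgeR. All 14 tested GTPases and chemokines induced by interferon gamma had a log2 fold change below 0 in DE+PFD+RIC against DE+PFD, with a median of -1.41, whereas the median in DE+RIC against DE was -0.14, with 11 of 14 below 0. For 23 antiviral genes the medians were -0.72 and -0.03. None of the genes passed in the test of the difference between the comparisons. Alveolar type 2 cell genes, which include the surfactant proteins, had a median of 0.18 in DE+RIC against DE, with 16 of 19 above 0, and blood vessel genes one of 0.00.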
